A study of Mus musculus with 17 samples.

Results

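The Fanconi anemia genes described here are Fanca, Fancb, Fancc, Fancd2, Fance, Fancf, Fancg, Fanci, Fancl and Fancm. They were taken by symbol from the deposited expression tables, and all 10 were found among the 23361 genes of each table. Expression was measured by RNA sequencing in mouse primordial germ cells, from which eggs and sperm later form, and some samples had been exposed to ionizing radiation (IR). There were 17 libraries, of which 5 were from E11.5 (E, embryonic day), comprising 2 irradiated (IR) and 3 non-irradiated (noIR) libraries with no sex given. The other 12 were from E13.5, with 3 libraries each of irradiated female cells (FIR), non-irradiated female cells (FC) and both male sets, coded MIR and MC. No strain, radiation dose or interval between exposure and collection is stated in the labels.

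Labels of the male samples contradict each other. By title and condition, MIR is the non-irradiated set and MC the irradiated one, but by the pattern of the female codes it is the reverse. The male groups are therefore named by code, and every male difference is MIR minus MC. The cell type entry of FIR replicate 1 reads E11.5, although its title and source name give E13.5. Whether replicates are separate animals is not stated, so the p-values rest on the spread between these samples alone, which may be technical. The E11.5 and E13.5 tables were not tested against each other.

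Fanconi anemia proteins repair DNA interstrand crosslinks, lesions that tie both strands of the double helix together and block replication forks. A nuclear core complex, which holds the products of Fanca, Fancb, Fancc, Fance, Fancf, Fancg and Fancl, works with the anchor Fancm to attach a single ubiquitin to the paired proteins Fancd2 and Fanci. The modified pair then brings nucleases and homologous recombination proteins to the lesion. In mice the pathway is known to be needed for normal numbers of germ cells, and loss of its genes commonly lowers fertility.

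Fancb lies on chromosome X and the other 9 genes are spread over autosomes, per GENCODE M21 on GRCm38. RefSeq promoter windows, each 300 bases long around the annotated start, were matched for 9 of the 10 genes. They were searched on both strands for TTTGAA and TTCGAA (the cell cycle homology region), TTTCCCGC and TTTGGCGC (E2F) and CCAAT (NF-Y). Fancg was the only one of the 9 to hold any of the first 4 motifs, with TTTCCCGC starting 52 bases before the RefSeq start. This motif was found in 1.07% of 32851 promoter windows of the same length. RefSeq and GENCODE starts differ for some genes. The windows of Fancc, Fanci and Fancl lie wholly inside their GENCODE genes, as does the TTTCCCGC of Fancg, so other starts of these genes were not searched. CCAAT stood in the windows of 6 genes, with 3 copies in Fancf, 2 in Fanca and 1 each in Fancb, Fancc, Fance and Fancm, and in 37.41% of all windows. A match describes letters in a window and does not show binding. The 3 windows printed here are that of Fancg, for its E2F motif, of Fancb, the X-linked member, and of Fancm, the member with the smallest adjusted p in the female comparison below. Motif letters are in capitals, and each sequence is given 5′ to 3′ on the strand of its gene (GRCm38.p6).
Fancg, chr4:43010252-43010551, minus strand: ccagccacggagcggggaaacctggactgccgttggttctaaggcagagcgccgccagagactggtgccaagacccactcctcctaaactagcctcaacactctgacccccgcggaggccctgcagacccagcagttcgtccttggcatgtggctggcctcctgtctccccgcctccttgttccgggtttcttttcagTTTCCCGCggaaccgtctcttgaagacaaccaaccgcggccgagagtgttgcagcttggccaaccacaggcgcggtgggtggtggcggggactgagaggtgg
Fancb, chrX:164980342-164980641, plus strand: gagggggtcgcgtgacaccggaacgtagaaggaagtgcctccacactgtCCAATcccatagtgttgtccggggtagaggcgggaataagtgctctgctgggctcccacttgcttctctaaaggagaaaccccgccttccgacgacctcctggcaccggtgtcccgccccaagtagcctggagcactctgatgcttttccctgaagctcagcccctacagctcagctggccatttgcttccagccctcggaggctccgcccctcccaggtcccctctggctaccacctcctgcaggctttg
Fancm, chr12:65075353-65075652, plus strand: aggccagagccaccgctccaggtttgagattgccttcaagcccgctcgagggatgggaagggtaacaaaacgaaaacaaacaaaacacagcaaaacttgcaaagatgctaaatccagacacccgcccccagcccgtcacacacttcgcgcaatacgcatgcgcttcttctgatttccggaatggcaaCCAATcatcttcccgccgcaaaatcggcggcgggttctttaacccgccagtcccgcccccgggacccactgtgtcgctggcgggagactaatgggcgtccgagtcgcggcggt

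All 10 genes reached an FPKM of at least 1 in all 17 libraries, so each was tested at both ages. FPKM is scaled by transcript length, which allows levels to be compared between genes. At E13.5 Fancd2, one of the paired ubiquitin targets, had the highest mean FPKM in all 4 groups, at 22.6 in FIR, 35.9 in FC, 21.1 in MIR and 35.4 in MC. By its geometric mean over the 12 libraries it stood at percentile 74.8 of the 12852 genes tested. Fancg, which encodes a core complex scaffold protein, stood lowest of the 10 by that measure, at percentile 41.2. At E11.5 Fancl, the ubiquitin ligase subunit, was highest, with a mean FPKM of 21.97 in IR and 26.7 in noIR libraries, and Fancg was again lowest at 4.58 and 4.16. In FC libraries the first 5 genes in order, Fancd2, Fancb, Fanci, Fancl and Fancm, did not overlap their next neighbour. In FIR libraries Fancd2, Fancb, Fanci and Fancl overlapped as neighbours, so their order there is not beyond the spread.

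**Figure D1:**
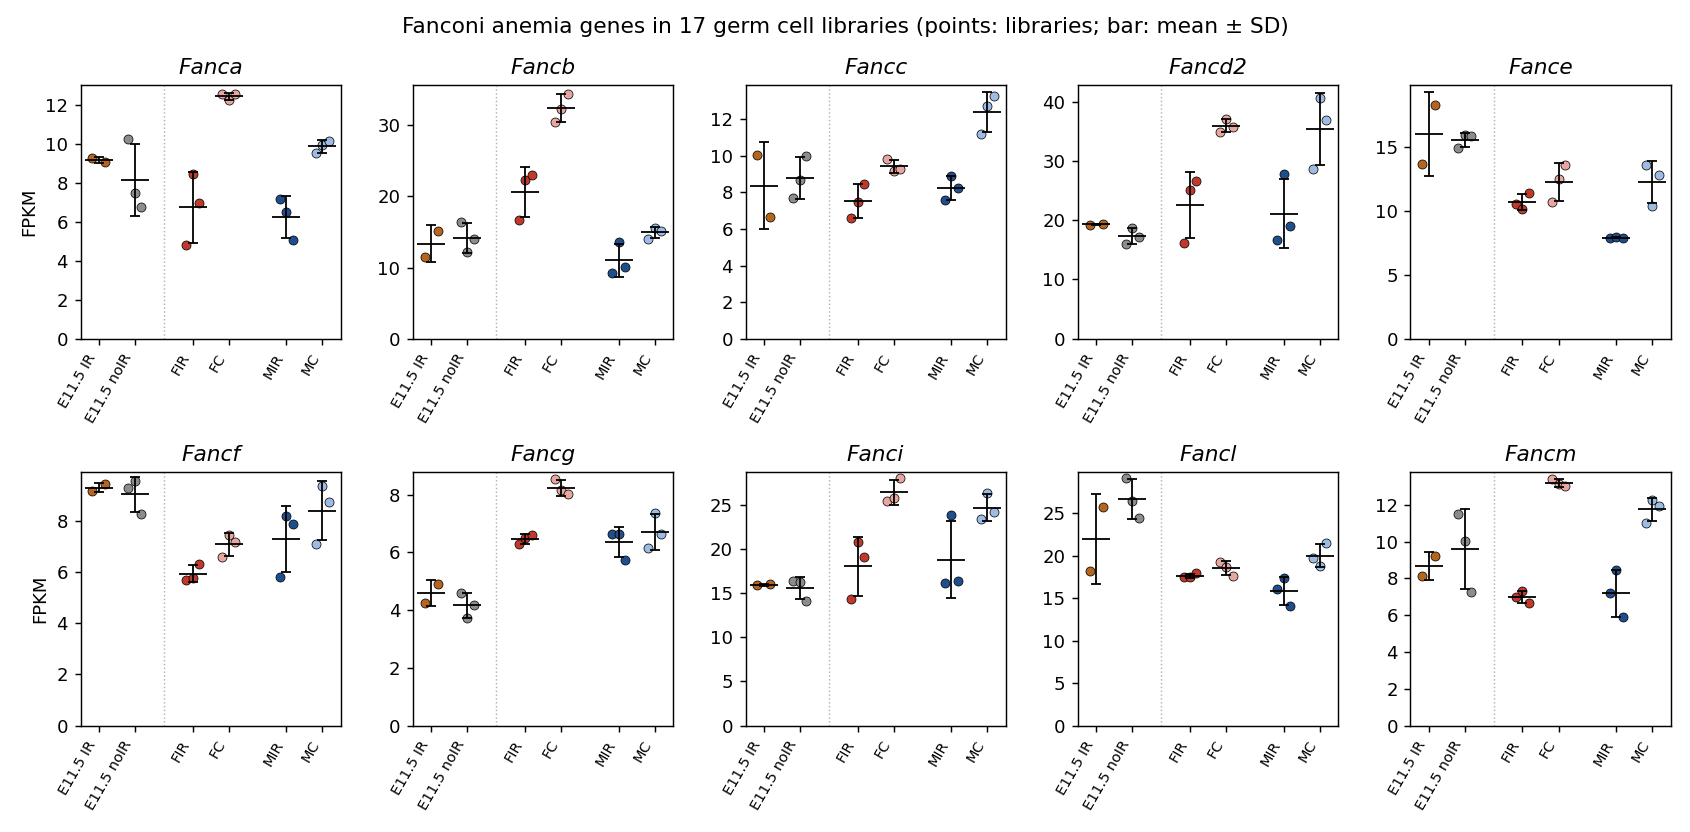
FPKM (y axis, from 0) of each gene in every library, by group along the x axis; points are libraries and the bar with whiskers is the mean ± SD (n = 2 for E11.5 IR, 3 for the others). The E11.5 groups overlap for 9 of the 10 genes (all genes: 9.51% apart with IR lower, 8.57% with IR higher), and FIR values lie below all FC values for 8 (32.3% of all genes).

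The libraries differed in more than the Fanconi genes. Genes with an FPKM of at least 1 numbered from 10805 to 11288 per library at E11.5 and from 10915 to 12487 at E13.5, and the total fragments per library are unknown. The 12 germ cell markers were present in every library. Their mean log2(FPKM + 1) was 5.82 to 6.33 in FIR and 6.82 to 6.93 in FC libraries, and 5.32 to 6.19 in MIR and 6.85 to 6.94 in MC libraries. Of these markers, 8 were lower in FIR than in FC and 11 were lower in MIR than in MC (adjusted p under 0.05, limma). Among all genes tested, 22.9% were lower and 21.8% higher in FIR, and 31.0% lower and 28.7% higher in MIR. The summed FPKM of 6 markers of gonadal supporting cells was 83.6 to 191 in FIR and 5.13 to 5.36 in FC libraries, and 87.4 to 253 in MIR and 8.23 to 10.8 in MC libraries. Of these, 6 were higher in FIR and 5 in MIR. The 6 pregranulosa markers summed to 117 to 317 FPKM in FIR and 6.44 to 7.29 in FC, with all 6 higher. The 6 Sertoli markers summed to 914 to 3087 FPKM in MIR and 47.8 to 87.7 in MC, with all 6 higher, and Dhh was at 0 in all FC libraries. The 8 macrophage markers summed to 39.6 to 60.9 FPKM in FIR and 9.30 to 12.5 in FC, and to 10.99 to 25.1 in MIR and 3.72 to 5.47 in MC, with all 7 tested higher in each contrast. The 6 mesenchyme markers summed to 21.9 to 39.9 FPKM in FIR and 7.03 to 10.3 in FC, with 3 higher, and to 10.5 to 48.2 in MIR and 2.94 to 8.52 in MC, with 6 higher. The 4 endothelial markers summed to 59.7 to 75.9 FPKM in FIR and 108 to 117 in FC, and to 34.7 to 70.1 in MIR and 81.2 to 87.4 in MC. Of the 3 that were tested, 1 was higher and 1 lower in each contrast. The 6 erythroid markers summed to 1.52 to 10.1 FPKM in FIR and 28.9 to 44.5 in FC, with 2 of 5 tested lower. In MIR they summed to 26.4 to 41.6 FPKM and in MC to 6.50 to 103, with 1 of 5 tested higher. FIR replicate 1 and MIR replicates 1 and 3 stood apart as lowest in germ cell markers and highest in supporting cell markers within their groups. At E11.5, Amh, a Sertoli cell hormone, was at 8.18 FPKM in IR replicate 1 and at most 0.201 in the other 4 libraries. Dazl, a germ cell marker, was at 411.8 FPKM in IR replicate 1 and 12.4 to 92.6 in the other 4. The 5 erythroid markers found at E11.5 summed to 652.6 and 10.2 FPKM in IR, and to 302.9, 1.07 and 376.8 in noIR libraries. The macrophage markers summed to 53.4 FPKM in noIR replicate 2 and 13.1 to 17.6 in the other 4 libraries.

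At E11.5 no Fanconi anemia gene passed the test between IR and noIR libraries. The differences ran from -0.29 for Fancl to 0.17 for Fanca on the log2 scale, with 6 genes above 0 and 4 below, and adjusted p-values from 0.974 to 0.992 (limma). None of the 10 had an unadjusted p under 0.05, the smallest being 0.176 for Fancl. Of all 11315 genes tested, 2 passed (0.0177%), and 358 had an unadjusted p under 0.05. Leaving out 1 library gave up to 0.152% of genes (without IR replicate 2), again with no member called. Fancl FPKM was 18.2 and 25.7 in IR libraries, against 29.2, 26.5 and 24.5 in noIR libraries. The groups overlapped, because IR replicate 2 lay above noIR replicate 3. Fancd2 FPKM was 19.2 and 19.3 in IR libraries, against 15.9, 18.6 and 17.2 in noIR libraries, and was the only gene of the 10 whose groups did not overlap, where 8.57% of all genes were so placed with IR higher and 9.51% with IR lower. Its difference of 0.16 ± 0.16 (log2, SE; 95% interval -0.22 to 0.53) did not pass (adjusted p = 0.974, limma). With 2 and 3 libraries, the intervals of the 10 genes reached as far as -0.73 for Fancl and 0.67 for Fanca, so changes up to that size cannot be told from none.

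At E13.5 the Fanconi anemia genes were lower in FIR than in FC and in MIR than in MC. In females 6 of 10 fell in FIR, while 22.9% of all 12852 genes tested were lower and 21.8% higher. In the male sets 8 of 10 fell in MIR, while 31.0% of all genes were lower and 28.7% higher. No member rose in either contrast. The members' median difference was -0.42 for FIR minus FC and -0.48 for MIR minus MC on the log2 scale, where the medians of all genes were -0.03 and -0.04. Groups did not overlap, with every FIR library below every FC library, for 8 members (32.3% of all genes), and with every MIR library below every MC library for 7 members (34.5%). These are bulk samples, in which fewer cells of a type and less RNA per cell cannot be told apart.

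Among the core complex genes, Fanca, a core subunit that works with Fancg, had the largest fall in females. Fanca FPKM was 4.83, 8.46 and 6.99 in FIR libraries, against 12.6, 12.3 and 12.6 in FC libraries. The male values were 7.19, 6.50 and 5.09 in MIR libraries, against 9.55, 9.95 and 10.2 in MC libraries. Neither pair of groups overlapped, and FIR replicate 1 was the lowest of all 12. The log2 difference was -0.83 ± 0.17 in females (SE; adjusted p = 0.00209) and -0.60 ± 0.17 in the male sets (adjusted p = 0.00812, limma).

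Fancb encodes the subunit that, with Fancl and the accessory protein Faap100, forms the catalytic module. Fancb FPKM was 16.6, 22.3 and 23.0 in FIR libraries, against 30.5, 32.3 and 34.4 in FC libraries. It was 9.31, 13.6 and 10.1 in MIR libraries, against 14.0, 15.6 and 15.2 in MC libraries. The female groups lay well apart, while MIR replicate 2 came within 1 FPKM of the lowest MC library. The log2 difference was -0.64 ± 0.15 in females (adjusted p = 0.00446) and -0.42 ± 0.15 in the male sets (adjusted p = 0.0257, limma). The male call was lost without MIR replicate 1, MIR replicate 3, MC replicate 2 or MC replicate 3 (adjusted p up to 0.107).

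Fancc and Fance, whose products bind each other and link the core complex to Fancd2, passed the test in the male sets and not in females. Fancc FPKM was 7.56, 8.89 and 8.25 in MIR libraries, against 11.2, 12.7 and 13.3 in MC libraries, a log2 difference of -0.54 ± 0.12 (adjusted p = 0.00200). In females it was 6.62, 7.48 and 8.47 in FIR libraries, against 9.82, 9.17 and 9.30 in FC libraries. Here too the groups did not overlap, but the difference of -0.30 ± 0.12 narrowly missed the threshold (adjusted p = 0.0568, limma). It passed with a filter at an FPKM of 5 (0.0481), quantile (0.0401) or median scaling (0.0419), library weights (0.00372), or without FIR replicate 3 (0.0333) or MIR replicate 2 (0.0423). Fance FPKM was 7.90, 7.94 and 7.87 in MIR libraries, against 13.6, 10.4 and 12.8 in MC libraries, a log2 difference of -0.57 ± 0.12 (adjusted p = 0.00183). In females it was 10.6, 10.2 and 11.4 in FIR libraries, against 10.7, 12.5 and 13.6 in FC libraries, and the groups overlapped. The female difference of Fance was -0.17 ± 0.12 (adjusted p = 0.264, limma), and passed with library weights (-0.22, adjusted p = 0.0271). Whether the female and male changes differ is tested further on.

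Fancg passed in females and not in the male sets. Its FPKM was 6.28, 6.48 and 6.62 in FIR libraries, against 8.56, 8.16 and 8.01 in FC libraries, and the log2 difference was -0.31 ± 0.11 (adjusted p = 0.0380). Male values were 6.65, 6.64 and 5.75 in MIR libraries, against 6.14, 7.38 and 6.62 in MC libraries, with a difference of -0.07 ± 0.11 (adjusted p = 0.607, limma). Under quantile scaling the male difference was -0.37 and passed (adjusted p = 0.0280). The female groups were tight and separate, and the male groups overlapped. The female call of Fancg, the gene with the E2F letters shown above, was lost in 7 of the 12 fits that left out 1 library, with adjusted p-values up to 0.114. Those 7 were each FIR library, each FC library and MC replicate 3. Fancf, an adaptor within the core complex, passed in neither contrast, at -0.22 ± 0.14 in females (95% interval -0.53 to 0.09) and -0.19 ± 0.14 in the male sets (-0.49 to 0.12). It passed in females with library weights (-0.25, adjusted p = 0.0110) and in the male sets under quantile scaling (-0.44, adjusted p = 0.0499).

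Fancl, the ligase that attaches the ubiquitin, changed least of the members in females. Its FPKM was 17.5, 17.5 and 17.9 in FIR libraries, against 19.2, 18.7 and 17.7 in FC libraries, and the groups overlapped. The difference was -0.07 ± 0.10 (95% interval -0.28 to 0.15; adjusted p = 0.603, limma). In the male sets Fancl FPKM was 16.1, 17.4 and 14.1 in MIR libraries, against 19.7, 18.8 and 21.5 in MC libraries. That fall of -0.32 ± 0.10 passed (adjusted p = 0.0141, limma), and was lost without MIR replicate 3 or MC replicate 3 (adjusted p = 0.0705 and 0.0666).

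Fancm, the DNA translocase that anchors the core complex to chromatin, had the smallest adjusted p of the 10 in both contrasts. Its FPKM was 6.997, 7.29 and 6.67 in FIR libraries, against 13.4, 13.2 and 13.01 in FC libraries. In the male sets it was 7.21, 8.47 and 5.90 in MIR libraries, against 11.01, 12.3 and 11.9 in MC libraries. The FIR values spanned less than 1 FPKM, although FIR replicate 1 stood apart in its markers. The log2 difference was -0.83 ± 0.12 in females (adjusted p = 0.00031) and -0.65 ± 0.12 in the male sets (adjusted p = 0.000733, limma).

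Both paired ubiquitin targets fell in both contrasts. Fancd2 FPKM was 16.2, 25.03 and 26.5 in FIR libraries, against 34.9, 37.1 and 35.8 in FC libraries. Among male libraries Fancd2 was at 16.6, 27.7 and 19.0 in MIR libraries, against 28.6, 40.6 and 36.8 in MC libraries. FIR replicate 1 in FIR, and MIR replicates 1 and 3 in MIR, were lowest in germ cell markers and also lowest in Fancd2. Its log2 difference was -0.68 ± 0.20 in females (adjusted p = 0.0179) and -0.73 ± 0.20 in the male sets (adjusted p = 0.00811, limma). The female call was lost without FIR replicate 1 (0.0762) or FC replicate 2 (0.0545). Fanci FPKM was 14.3, 20.8 and 19.1 in FIR libraries, against 25.4, 25.7 and 28.0 in FC libraries. In the male sets Fanci was at 16.1, 23.8 and 16.4 in MIR libraries, against 23.4, 26.3 and 24.1 in MC libraries. The female groups were separate, while MIR replicate 2 lay above MC replicate 1. The differences were -0.54 ± 0.16 (adjusted p = 0.0147) and -0.39 ± 0.16 (adjusted p = 0.0452, limma). The female call of Fanci was lost without FIR replicate 1 (0.0612) or FC replicate 3 (0.0529). The Fanci male call was lost in 9 of the 12 fits that left out 1 library, at adjusted p-values up to 0.160, namely those without MIR replicate 1 or 3, FIR replicate 3, any 1 MC library or any 1 FC library.

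**Figure D2:**
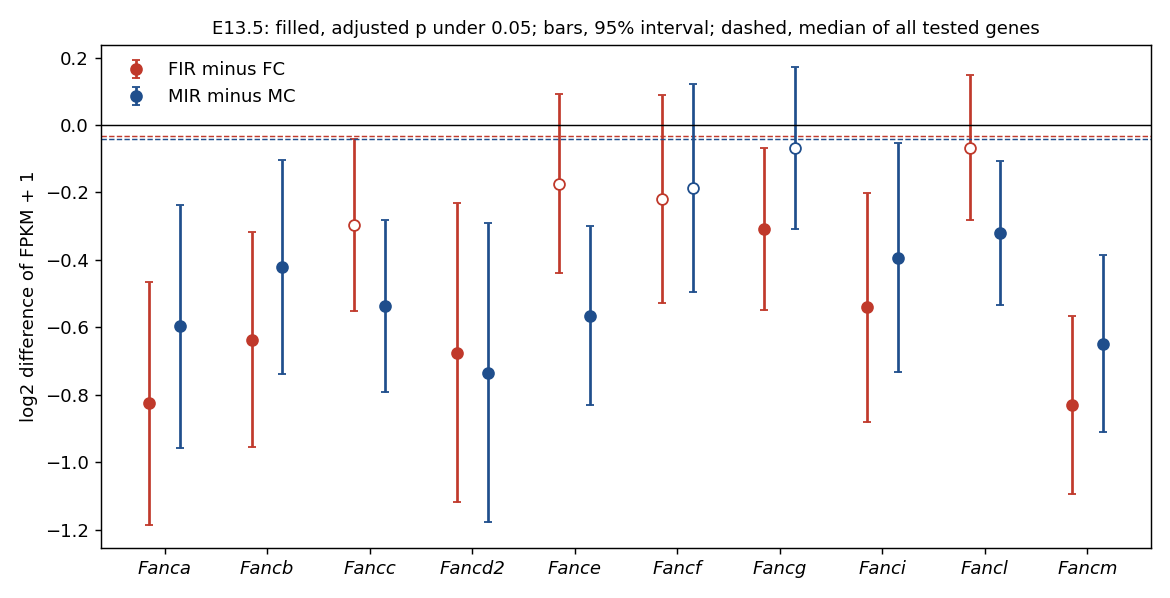
Log2 difference of FPKM + 1 (y axis) at E13.5 for each gene (x axis), FIR minus FC and MIR minus MC; filled points have an adjusted p under 0.05, whiskers are 95% intervals and dashed lines are the medians of all tested genes (-0.03 and -0.04). All 20 points lie below 0, with 6 female and 8 male points filled.

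The members' level and the marker levels differed together between the E13.5 groups. Within FC and MC, the germ cell marker level did not follow that of the members. FC replicate 1 and MC replicate 1 were highest in germ cell markers (6.93 and 6.94) and lowest in the members. MIR replicate 1 was lowest in germ cell markers (5.32), while MIR replicate 3 (5.75) was lowest in the members. The mean log2(FPKM + 1) of the 10 genes was 3.40, 3.64 and 3.66 in FIR and 3.998, 4.03 and 4.04 in FC libraries, and 3.37, 3.63 and 3.35 in MIR and 3.81, 3.94 and 3.94 in MC libraries. The 3 lowest were FIR replicate 1 and MIR replicates 1 and 3, the libraries that stood apart in markers. Without these 3 libraries together, an alternative added after seeing the data, the same 6 female calls were made and 4 male calls remained, those of Fanca, Fancc, Fance and Fancm; MIR then held 1 library, assumed to vary like the other groups. Without FIR replicate 1 alone 3 members were called in females, with Fancd2, Fancg and Fanci lost, and without MIR replicate 3 or MC replicate 3 alone 5 were called in the male sets. With the germ cell marker level as a covariate 1 female call (Fancm) and 0 male calls were made, and with the somatic marker level 0 of either. With the germ cell marker level, female Fancd2 was at -0.02 ± 0.21 and female Fanca at -0.68 ± 0.25 (log2, SE). Without a covariate they were at -0.68 ± 0.20 and -0.83 ± 0.17. With the somatic marker level female Fancd2 was at 1.08 ± 0.94, so that marker level and group can hardly be told apart. Levels of both marker sets did not overlap between the groups compared, so neither fit assigns the differences to marker level or to group.

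**Figure D3:**
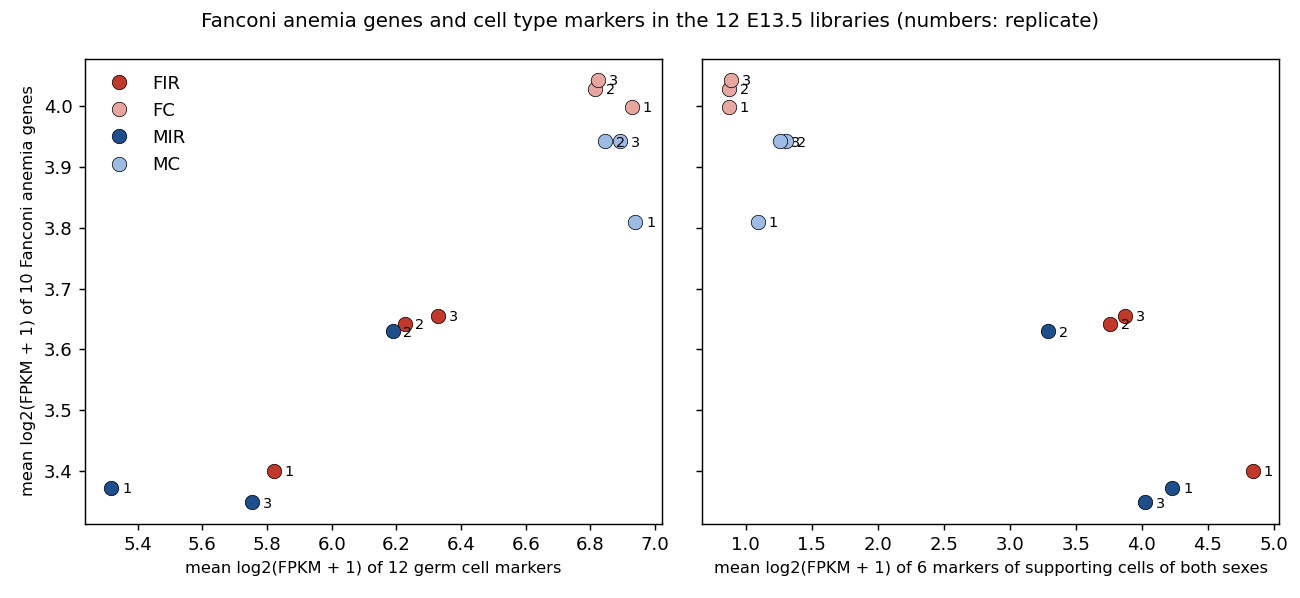
Mean log2(FPKM + 1) of the 10 Fanconi anemia genes (y axis) against that of 12 germ cell markers (left x axis) and 6 supporting cell markers (right x axis) in the 12 E13.5 libraries; each point is a library, numbered by replicate. FIR 1, MIR 1 and MIR 3 hold the 3 lowest gene means (3.35 to 3.40), and every FIR and MIR library lies below every FC and MC library in the gene mean.

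Lists of proliferation and damage response genes moved in the same libraries. Of 23 DNA replication genes, 15 were lower in FIR and 19 in MIR, beside 22.9% and 31.0% of all genes. Of 20 mitosis genes, 18 were lower in FIR and 19 in MIR, with medians of -0.71 and -0.70, beside the members' medians of -0.42 and -0.48. Of 20 targets of p53, the damage-activated transcription factor, 19 were higher in FIR, and 17 were higher and 1 lower in MIR. Of all genes, 21.8% were higher in FIR and 28.7% in MIR. The part of cell makeup, proliferation and the damage response in the Fanconi gene differences was not tested.

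The female and male changes were compared directly, as (FIR minus FC) minus (MIR minus MC). No member passed, while 998 genes did (7.77%). Leaving out 1 library gave 3.66% (without MIR replicate 3) to 19.6% of genes (without MIR replicate 2), with no member called. Fance was nearest, with a difference of 0.39 ± 0.17 (log2, SE; 95% interval 0.02 to 0.77), an unadjusted p of 0.0422 and an adjusted p of 0.194 (limma), and was the only member with an unadjusted p under 0.05. For Fancg, called in females alone, the difference was -0.24 ± 0.16 (95% interval -0.58 to 0.10), and for Fancl, called in the male sets alone, 0.25 ± 0.14 (-0.05 to 0.55). With the codes read as irradiation, a change in one sex and not the other is thus not shown for any of these genes. By title and condition the male term turns its sign, and the same test, added after seeing the data, then called 9 members, each negative (-1.48 for Fancm to -0.38 for Fancg), and 67.7% of all genes. That contrast sums the FIR minus FC and MIR minus MC differences, which were below 0 for all 10 members. Its calls thus restate the falls given above. The labels do not settle which of these comparisons is that of the irradiation changes. The 20 p53 targets counted above summed to 1344 to 1523 FPKM in MIR and 637.4 to 696.5 in MC libraries. Their female sums were 1152 to 1420 FPKM in FIR and 546.9 to 569.4 in FC libraries. Which male set was irradiated was not tested.

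Between the control-coded sets, 2 members passed in FC against MC libraries. Fancb was higher in FC, as were 16.1% of all genes, and Fancc was lower in FC, as were 18.8%. These libraries also serve as the base of the FIR and MIR contrasts above, so the comparisons are not independent, and MC counts as non-irradiated by its code alone. Fancb averaged 32.4 ± 1.97 FPKM in FC and 14.9 ± 0.798 in MC libraries (SD, n = 3 each), a log2 difference of 1.07 ± 0.15 (2.09-fold; adjusted p = 0.00019, limma). The lowest FC library was at 30.5 FPKM and the highest MC library at 15.6. FIR libraries, at 16.6 to 23.0 FPKM, also lay above all MC libraries. Over 481 tested genes on chromosome X, of which female cells carry a second copy, the median FC minus MC difference was 0.45, against -0.03 for 11575 autosomal genes. Of the X-linked genes, 220 were higher and 21 lower in FC. Fancb exceeded 87.3% of the X-linked and 96.9% of the autosomal genes. This grouping by chromosome was chosen after the values were seen and carries no test. Fancc averaged 9.43 ± 0.344 FPKM in FC and 12.4 ± 1.10 in MC libraries, a log2 difference of -0.36 ± 0.12 (adjusted p = 0.0321, limma). The Fancc call was lost without any 1 FC library, MC replicate 2 or MC replicate 3, and under quantile or median scaling, with adjusted p-values up to 0.171.

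**Figure D4:**
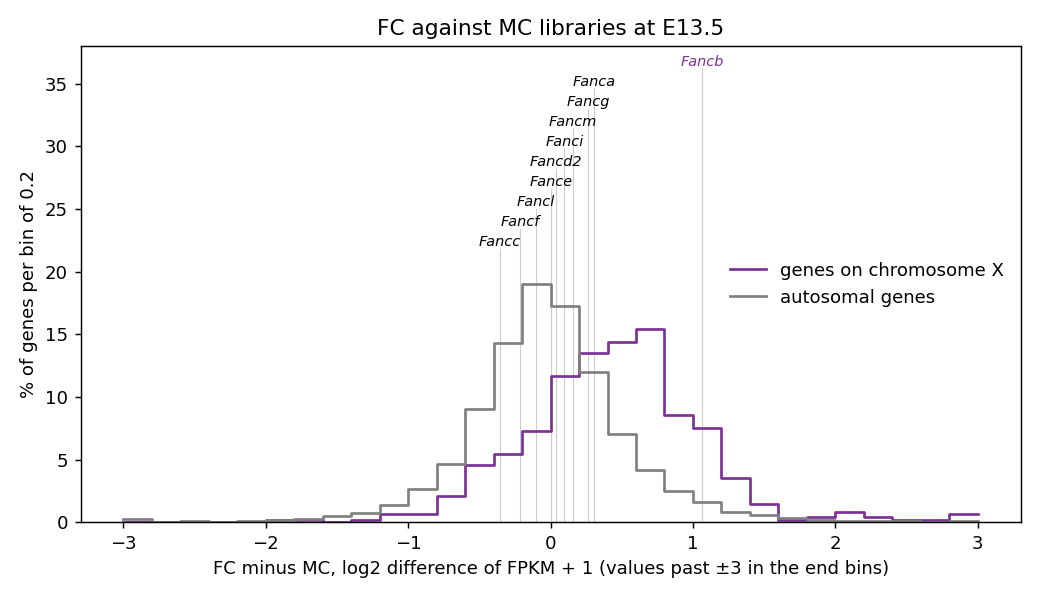
Share of genes (y axis, % per bin of 0.2) by FC minus MC difference at E13.5 (x axis, log2 difference of FPKM + 1) for 481 genes on chromosome X and 11575 autosomal genes; thin lines mark the 10 Fanconi anemia genes. Fancb, the X-linked member, stands at 1.07, and the other 9 lie between -0.36 and 0.31.

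Other genes of the pathway, 29 of which were found and tested out of a list of 30, were read from the same fits. In FIR 14 fell and 2 rose, beside 22.9% lower and 21.8% higher among all genes. In MIR 13 fell and 1 rose, beside 31.0% lower and 28.7% higher. At E11.5 none of the 29 passed. In females the smallest adjusted p-values belonged to Rfwd3, a ubiquitin ligase of crosslink repair (-0.69 ± 0.11), Wdr48, the cofactor of the deubiquitinase Usp1 (-0.63 ± 0.11), Faap20, a core complex partner (1.36 ± 0.26), Brca1, a recombination factor (-0.95 ± 0.18), Usp1, which removes ubiquitin from Fancd2 (-0.72 ± 0.14), and the helicase Blm (-0.68 ± 0.13). Their adjusted p-values ran from 0.000547 to 0.00179 (limma). In the male sets they belonged to Wdr48 (-0.64 ± 0.11), Palb2, a recombination partner (-0.84 ± 0.16), Blm (-0.71 ± 0.13), the replication stress kinase Atr (-0.79 ± 0.17), the topoisomerase Top3a (-0.50 ± 0.12) and Usp1 (-0.58 ± 0.14), with adjusted p-values from 0.000358 to 0.00305 (limma). Both deubiquitinase genes thus fell in both contrasts beside their substrate pair.

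The members of the list that rose were few. Mus81, a nuclease subunit, rose in both contrasts, by 0.92 ± 0.20 in FIR (adjusted p = 0.00323) and 0.56 ± 0.20 in MIR (adjusted p = 0.0277, limma). Faap20 averaged 7.31 FPKM in FIR and 2.05 in FC libraries. It and Rfwd3 were the 2 list genes whose female and male changes differed, by 1.53 ± 0.36 for Faap20 (adjusted p = 0.0243) and -0.69 ± 0.16 for Rfwd3 (adjusted p = 0.0196, limma). That is 2 of 29, near the share of all genes (7.77%). Between FC and MC libraries 4 list genes were higher and 4 lower in FC, shares below those of all genes (16.1% and 18.8%). Those with the smallest adjusted p were Faap20 (-1.96 ± 0.26), Faap24 (0.77 ± 0.16), Slx4 (-0.51 ± 0.12), Chek1 (0.59 ± 0.16), Mus81 (-0.73 ± 0.20) and Rfwd3 (0.36 ± 0.11), with adjusted p-values from 0.00014 to 0.0226 (limma).

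**Figure D5:**
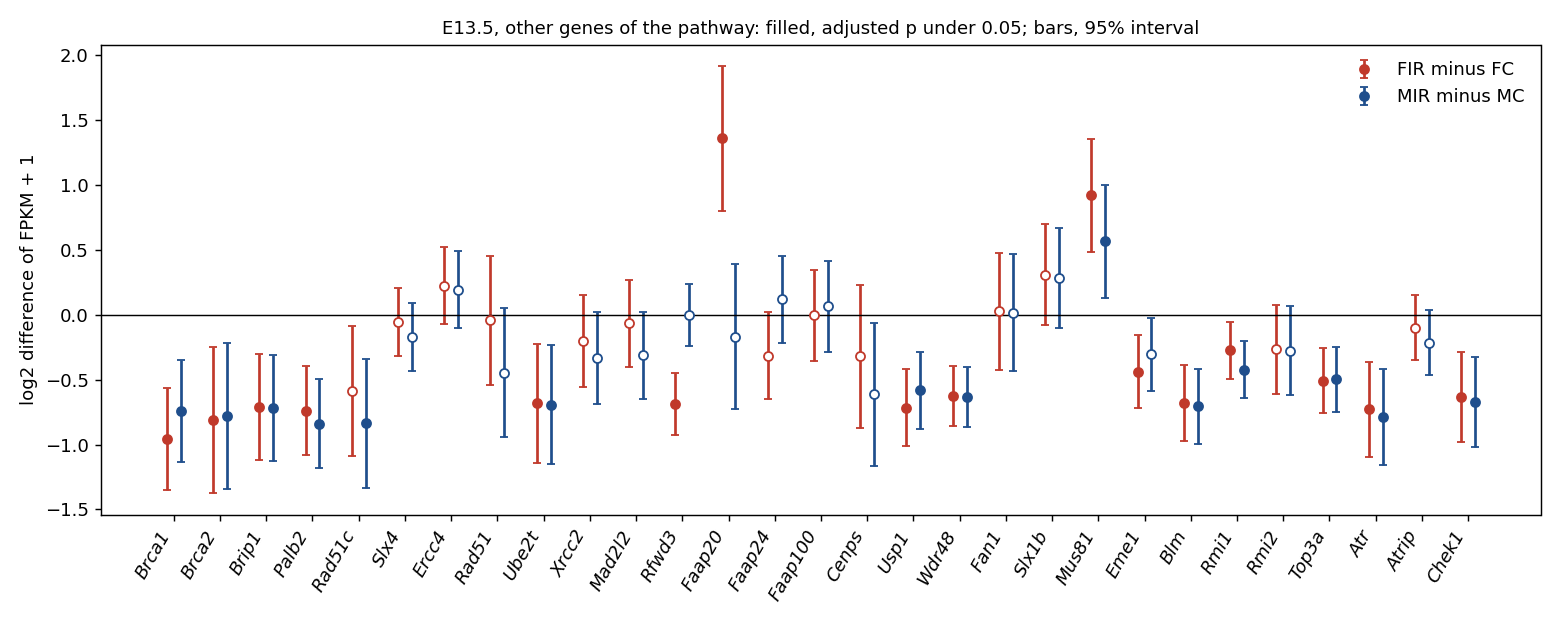
Log2 difference of FPKM + 1 (y axis) at E13.5 for 29 other genes of the pathway (x axis), FIR minus FC and MIR minus MC; filled points have an adjusted p under 0.05 and whiskers are 95% intervals. Most filled points lie below 0, and Faap20 in females and Mus81 in both contrasts lie above it.

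The pattern over the 12 E13.5 libraries was compared with that of 11995 other genes, by the root mean square difference of centred log2 values, as a description only. The nearest genes to Fancd2 were Supt16 (0.0895) and Nup133 (0.0920), and to Fanci Topbp1 (0.0757) and Diap3 (0.0894). Nearest to Fancm were Ranbp2 (0.0707) and Atm (0.0778), to Fanca Ncapg2 (0.135) and Stag1 (0.138), and to Fancb Acot9 (0.1001) and Btbd10 (0.101). The single nearest gene was D10Wsu52e for Fancc (0.0633), Telo2 for Fancl (0.066) and Trappc9 for Fancg (0.0666). It was Ap2b1 for Fancf (0.0773) and Thoc1 for Fance (0.106). Among the members themselves, Fancg and Fancl were nearest to each other (0.1585), as were Fancc and Fancf (0.1589). The same held for Fanca and Fancm (0.170) and for Fancd2 and Fanci (0.171). Fancb was the farthest member from each of the other 9, at 0.425 to 0.630.

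Some exons are shared with genes on the opposite strand, and since the use of strand is not stated, reads there cannot be told apart. Fanci shares 15.95% of its exon bases with Polg, which reached 51.7 FPKM at E13.5. Fancf shares 14.96% with Gas2, Fancl 13.7% with Vrk2 and Fanca 10.5% with Zfp276, which reached 4.42 FPKM. Fancc shares 16.43% with the antisense gene Gm16133, which had no row of its own in the tables. Fancb and Fancg share none.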

How the data were processed

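The authors deposited FPKM values (fragments scaled by transcript length and by the fragments mapped in the library) with E11.5 (5 libraries) and E13.5 (12 libraries) in separate tables. Per the labels, ribosomal RNA was removed by hybridization before NEBNext library construction. The submitters' processing notes name mm10 and DESeq2, without saying what each was used for. For the aligner, the counting program, the annotation and the use of strand: not given in the sources used here. FPKM are not counts, so no count test was run. The files give no totals per library. Low FPKM values were searched for the worth of 1 fragment under 3 settings, each chosen after seeing the data, the later ones because the estimates before them looked unstable. The estimates for a library differed between these settings by 1.02-fold to 18.8-fold (median 4.27-fold), so depth is treated as unknown and no counting interval is given.

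Differences were tested with limma-trend (limma version 3.58.1, R version 4.3.3) and empirical Bayes moderation on log2(FPKM + 1). A gene was tested if its FPKM reached 1 in 2 or more E11.5 libraries, or in 3 or more E13.5 libraries. The 4 E13.5 groups shared 1 fit. Adjusted p-values are two-sided Benjamini-Hochberg values over all genes tested, with a threshold of 0.05; differences are on the log2(FPKM + 1) scale, which understates changes of low genes. The pipeline was tested on simulated data. Python 3.11.15 with matplotlib 3.10.9 served for levels, motifs and figures. Exon positions are from GENCODE M21 on GRCm38 and promoter sequences from RefSeq on GRCm38.p6.

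The members and all lists were chosen with earlier results of these data known. Named pathway genes are the called ones with the smallest adjusted p, up to 6 in each comparison. Likeness is the root mean square difference of log2(FPKM + 1), each gene centred on its mean over the 12 E13.5 libraries. Alternatives were pseudocounts, filters, scalings, library weights, the replicate number as a block, marker levels as covariates, fitting only the groups compared, and leaving out libraries. Leaving out FIR replicate 1 and MIR replicates 1 and 3 together, and reading the male sets by title in the difference of the changes, were added after seeing the data.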

Additional observations from a re-analysis of the deposited data

How the results depend on the processing

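Every value here is a log2 difference on the log2(FPKM + 1) scale, a percentage of the tested genes called by limma, or a count of Fanconi genes called. Of the tested genes, 44.8% were called for FIR minus FC, 59.7% for MIR minus MC, 34.9% for FC minus MC, 7.77% for the difference of the changes and 0.0177% for IR minus noIR at E11.5. Leaving out 1 library gave 33.7% to 51.8%, 48.8% to 64.4%, 24.6% to 42.1%, 3.66% (without MIR replicate 3) to 19.6% (without MIR replicate 2) and 0.0181% to 0.152% (without IR replicate 2), in that order. The Fanconi genes called were then 3 to 7 in females, 5 to 8 in the male sets, 1 to 2 for FC minus MC, and 0 in the other comparisons. Directions turned in some of these fits for E11.5 Fancb (-0.27 to 0.10), Fancc (-0.34 to 0.18), Fance (-0.17 to 0.22), Fancf (-0.0171 to 0.0767), Fanci (-0.0272 to 0.0701) and Fancm (-0.28 to 0.0206). They also turned for FC minus MC in Fancd2 (-0.10 to 0.14) and Fance (-0.10 to 0.0885), and for the difference of the changes in Fancd2 (-0.0884 to 0.27), Fancf (-0.17 to 0.0686) and Fanci (-0.25 to 0.0276). None of these differences passed the test in any fit that left out 1 library. The cause of the turns was not tested.

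Same-numbered E13.5 libraries did not deviate together (correlations of -0.0358, -0.0331 and -0.0912 for FIR and FC, and -0.22, -0.15 and -0.0204 for MIR and MC). With so few libraries per group these values cannot exclude that the numbers pair samples, and the E11.5 libraries were not compared in this way. With the replicate block the female call of Fancg was lost (adjusted p = 0.0513), 0.0442% of genes were called at E11.5, and E11.5 differences were 0.0042 for Fancc, -0.0171 for Fancf and -0.0272 for Fanci. With no filter 0.00557% were called at E11.5 and 5% for the difference of the changes. A filter at an FPKM of 5 gave 5.82% for the difference of the changes.

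Median scaling moved all members by -0.0721 in the female, -0.16 in the male and 0.015 in the FC minus MC comparison; all 10 members stayed below 0 in FIR minus FC and MIR minus MC under median and quantile scaling. Under either scaling 1 member was called for FC minus MC, and median scaling gave 0.0552 for Fancf in the difference of the changes. Quantile scaling lost the female calls of Fancd2 (adjusted p = 0.0608) and Fanci (0.0563) and the male call of Fanci (0.0955), and gained female Fancc (0.0401), male Fancf (0.0499) and male Fancg (0.0280). Female Fancc was also gained under median scaling (0.0419) and the filter at an FPKM of 5 (0.0481), and male Fanci was lost with no filter (0.0663). Library weights, whose estimation stopped short of its convergence tolerance in the E13.5 fits, gave 68.7% of genes and 7 members for FC minus MC, with -0.0110 for Fancd2 and -0.0448 for Fance. They gave 29.3% for the difference of the changes, with 0.15 for Fancf and 0.0674 for Fanci, and 0.0019 for Fancg in the male sets; they also gained female calls of Fancc (adjusted p = 0.00372), Fance (0.0271) and Fancf (0.0110).

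With the germ cell marker level as a covariate, 15.2% of genes and 1 member were called in females, with 0.0422 for Fancf and 0.0158 for Fancl. The male sets had 4.73% of genes and 0 members, with 0.29 for Fancb, 0.28 for Fancd2, 0.22 for Fancf and 0.35 for Fanci, and Fancd2 was at -0.30 in the difference of the changes. With the somatic marker level, 1.63% of genes and 0 members were called in females, with 0.44 for Fanca, 0.75 for Fancb, 0.25 for Fancc, 1.08 for Fancd2, 0.11 for Fance, 0.99 for Fanci and 0.13 for Fancl. The male sets had 0.895% of genes and 0 members, with 0.63 for Fanca, 0.92 for Fancb, 0.97 for Fancd2 and 1.09 for Fanci. FC minus MC was -0.24 for Fancd2, -0.0431 for Fance and -0.14 for Fanci, and the difference of the changes had 17.5% of genes. At E11.5 this covariate gave 0.0354% of genes, with 0.0339 for Fancb, -0.0054 for Fancf and -0.0187 for Fanci. The standard errors of the female values under it were as high as 0.94 (Fancd2), since marker level and group hardly vary apart.

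Without FIR replicate 1 and MIR replicates 1 and 3 together, 40.4% of genes and 4 members were called in the male sets and 4.63% of genes for the difference of the changes, where Fancd2 was at -0.14. With only the 2 groups compared in the fit, the male calls of Fanci (adjusted p = 0.0676) and Fancl (0.0573) were lost, and 54% of genes were called for FC minus MC, Fanca among them (0.0123). With the male sets read by title, added after seeing the data, 67.7% of genes and 9 members were called for the difference of the changes, with -0.83 for Fancc, -1.41 for Fancd2, -0.74 for Fance and -0.39 for Fancl; the turned sign of the male term makes this change. Over all alternatives, 202 of 240 female, 197 of 240 male, 208 of 230 FC minus MC, 217 of 240 difference and 134 of 149 E11.5 member values kept their direction and their side of the threshold. These counts include fits that left out a library of a group not compared. Such a fit could change the p-values of a member but not its difference or direction. Depth is unknown, so what counting error limits cannot be stated.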
